A study of Mus musculus with 23 samples.

Results

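Hemoglobin genes were followed in the hippocampus of mice that drank alcohol with or without urolithin A (UA). The 4 adult globin genes (Hbb-bs, Hbb-bt, Hba-a1 and Hba-a2) and Alas2 made up 5 of the 19733 genes of the deposited table. They were chosen by their FPKM in that table, which were higher in alcohol-fed mice given UA than in control mice. For these 5 genes that comparison is therefore only described here, without a test.

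The study asked whether UA changes the effects of chronic alcohol on cognition and social behavior, and RNA sequencing of the hippocampus was used to look for genes behind such an effect. All mice were wild-type C57BL/6J males acquired at 6 weeks of age. Ctrl mice (n = 9) received an AIN93M control liquid diet and a daily gavage of the vehicle CMC-Na, EtOH mice (n = 7) the ethanol version of that diet with the vehicle, and EtOH-UA mice (n = 7) the ethanol diet with UA at 200 mg/kg/day in the vehicle. Diet and gavage lasted 16 weeks, followed by 1 week of behavioral tests. No group of the table received UA without ethanol, so the data hold no measure of UA on the control diet. The columns of the table name the group and a mouse number, and mice are described here by group only.

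Hemoglobin carries oxygen in red blood cells as a tetramer of alpha and beta chains, each holding a heme group. In the C57BL/6 mouse the adult beta chains come from Hbb-bs and Hbb-bt and the adult alpha chains from Hba-a1 and Hba-a2. Alas2 encodes the erythroid form of 5-aminolevulinate synthase, the first enzyme of heme synthesis, and its partner Alas1 serves all other cells. Reticulocytes, the youngest red cells of the blood, have lost their nucleus but still carry globin and Alas2 mRNA, and globin transcripts have also been described in neurons and glia. In bulk tissue, more cells that carry a transcript and more transcript per cell cannot be told apart. The sources used here do not state whether the brains were perfused to remove blood.

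The promoters of the members are shown because the 5 genes turned out to vary together between mice. Each line gives the 250 bases before the start of the gene, 5′ to 3′ on the gene's strand, from the RefSeq annotation of GRCm38.p6, the assembly also called mm10 that the authors aligned to. Capitals mark 4 short motifs, searched on both strands. The motif of the GATA factors was read as AGATAA or as AGATAG, and equally with a T in place of the first A. The box bound by Krüppel-like factors was read as CACCC, the CCAAT box by its own letters, and the TATA box as TATAA. Where a motif lies on the opposite strand, its reverse complement is the run in capitals.
Hbb-bs: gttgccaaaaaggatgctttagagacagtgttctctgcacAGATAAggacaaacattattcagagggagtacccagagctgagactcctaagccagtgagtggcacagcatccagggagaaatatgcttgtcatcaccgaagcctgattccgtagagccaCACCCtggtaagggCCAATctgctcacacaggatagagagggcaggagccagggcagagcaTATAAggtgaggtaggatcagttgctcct
Hbb-bt: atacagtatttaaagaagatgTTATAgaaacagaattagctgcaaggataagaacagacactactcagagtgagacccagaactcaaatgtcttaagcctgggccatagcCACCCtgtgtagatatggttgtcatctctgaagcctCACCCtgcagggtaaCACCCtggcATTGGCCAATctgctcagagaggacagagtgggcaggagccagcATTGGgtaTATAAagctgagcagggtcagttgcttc
Hba-a1: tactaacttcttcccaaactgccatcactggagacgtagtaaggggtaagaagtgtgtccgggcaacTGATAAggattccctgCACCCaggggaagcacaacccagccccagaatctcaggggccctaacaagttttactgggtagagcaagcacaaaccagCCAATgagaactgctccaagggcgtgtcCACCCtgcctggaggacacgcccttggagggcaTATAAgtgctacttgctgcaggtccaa
Alas2: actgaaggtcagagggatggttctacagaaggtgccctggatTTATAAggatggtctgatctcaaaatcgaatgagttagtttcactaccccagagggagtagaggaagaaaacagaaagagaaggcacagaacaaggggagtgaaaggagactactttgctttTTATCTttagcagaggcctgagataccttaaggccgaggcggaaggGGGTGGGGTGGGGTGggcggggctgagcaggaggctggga
The Hbb-bs window is chr7:103827929-103828178 (minus strand) and the Hbb-bt window chr7:103813924-103814173 (minus strand). The Hba-a1 window is chr11:32283422-32283671 (plus strand), and the Alas2 window is chrX:150547167-150547416 (plus strand). The window of Hba-a2, chr11:32296242-32296491, was the same as that of Hba-a1 over 247 bases with a shift of 3, and is not printed again. The annotated genes span chr7:103826523-103827928 (Hbb-bs), chr7:103812524-103813923 (Hbb-bt), chr11:32283672-32284486 (Hba-a1), chr11:32296492-32297310 (Hba-a2) and chrX:150547417-150570622 (Alas2), and the windows lie directly upstream of them. The Hbb-bs and Hbb-bt windows were identical in 182 of 247 aligned positions (73.7%).

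Each globin window held a TATAA close to the start, at 29 to 25 bases upstream in Hbb-bs, 28 to 24 in Hbb-bt, 27 to 23 in Hba-a1 and 30 to 26 in Hba-a2. The CCAAT of the same strand lay farther up, at 76 to 72 bases in Hbb-bs, 75 to 71 in Hbb-bt, 88 to 84 in Hba-a1 and 91 to 87 in Hba-a2. CACCC occurred in all 5 windows, with 1 match in Hbb-bs, 3 in Hbb-bt, 2 in each alpha gene and 3 in Alas2, all of the latter on the opposite strand. The GATA letters were matched once in Hbb-bs, Hba-a1, Hba-a2 and Alas2, and not in Hbb-bt. In the Alas2 window the TATAA matches lay far from the start, on both strands between 208 and 203 bases upstream, and no CCAAT was matched. Of 32851 windows of the same length in RefSeq, 26.5% held the GATA letters, 52.0% CACCC, 33.8% CCAAT and 22.8% TATAA. All 4 motifs together were held by 1.08% of the windows and by those of Hbb-bs, Hba-a1 and Hba-a2. A match describes letters only, and no match says nothing about a factor.

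The values are FPKM, counts of fragments divided by transcript length and library size, which the authors estimated with RSEM. Reads of the paralogous globin genes are hard to assign. Of the 100-base windows of the Hbb-bs transcript, 331 of 529 (62.6%) also occur in Hbb-bt, and of those of Hba-a2, 339 of 455 (74.5%) also occur in Hba-a1. The aligned Hba-a1 and Hba-a2 transcripts differed in 1 of 538 positions, since 537 were identical, and those of Hbb-bs and Hbb-bt were identical in 570 of 609 (93.6%). No such window was shared between an alpha and a beta gene, or between a globin gene and Alas2. The division of reads within the alpha pair and within the beta pair is therefore uncertain. Because FPKM divide by transcript length, the FPKM sum of a pair and the ratio of the sums also move with that division, since the transcripts are 699 and 554 bases long for Hba-a1 and Hba-a2 and 628 and 703 bases for Hbb-bs and Hbb-bt. Alas2 is not affected.

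Hbb-bs was the most abundant member, and per transcript length the usual order of levels was Hbb-bs, Hba-a1, Hba-a2, Hbb-bt and Alas2. Hbb-bs was above Hba-a1 in 22 of 23 mice, with a median ratio of 1.3, and Hba-a1 was above Hba-a2 in 21 of 23 mice, with a median ratio of 1.82. Hba-a2 was above Hbb-bt, and Hbb-bt above Alas2, in all 23 mice. Alas2 was also below Alas1 in all 23 mice, with a median ratio of Alas1 to Alas2 of 25.3. The 4 globin genes together held on average 0.0287%, 0.0391% and 0.0452% of the summed FPKM for Ctrl, EtOH and EtOH-UA.

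**Figure D1:**
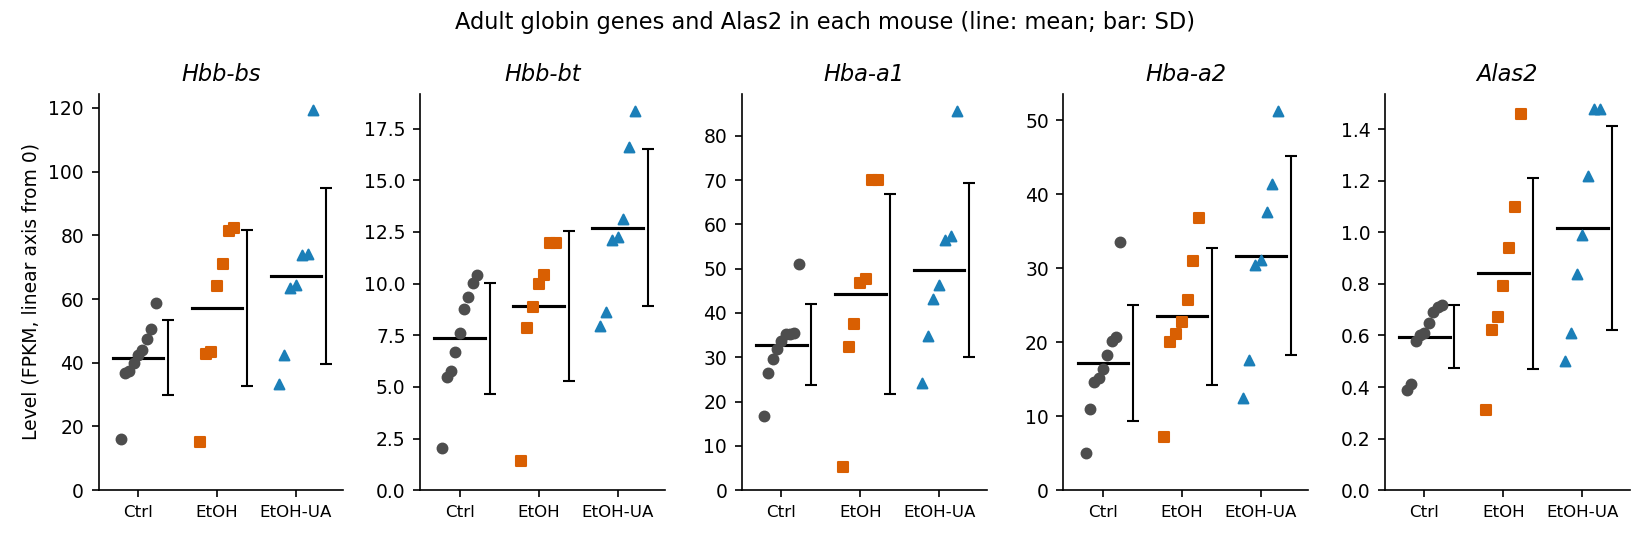
Level (FPKM, linear axes from 0) of the 4 adult globin genes and Alas2 in each mouse of the Ctrl (n = 9), EtOH (n = 7) and EtOH-UA (n = 7) groups; points are mice, horizontal lines are means and bars are SD. The mean is lowest in Ctrl and highest in EtOH-UA in all 5 panels, the 3 groups overlap in each panel, and the lowest EtOH mouse of every panel is the same animal.

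Among the beta globin genes, the group means of Hbb-bs were 41.5 ± 11.8 FPKM in Ctrl (SD, n = 9), 57.1 ± 24.4 in EtOH (SD, n = 7) and 67.2 ± 27.6 in EtOH-UA mice (SD, n = 7). Its lowest, median and highest values were 16.07, 42.34 and 58.82 FPKM in Ctrl, 15.26, 63.95 and 82.17 in EtOH, and 33.39, 64.3 and 119.3 in EtOH-UA mice. The groups overlapped, with 4 of 7 EtOH mice and 5 of 7 EtOH-UA mice above the highest Ctrl mouse, and the medians of EtOH and EtOH-UA lay close together. Hbb-bt, the less abundant beta gene, was at 7.35 ± 2.67 FPKM in Ctrl (SD, n = 9), 8.92 ± 3.63 in EtOH (SD, n = 7) and 12.7 ± 3.82 in EtOH-UA mice (SD, n = 7). Its lowest, median and highest values were 2.05, 7.62 and 10.39 FPKM in Ctrl, 1.43, 9.99 and 11.96 in EtOH, and 7.93, 12.23 and 18.35 in EtOH-UA mice. In Hbb-bt, 5 of 7 EtOH-UA mice were above the highest EtOH mouse, and all 7 were above the Ctrl median. The ratio of Hbb-bt to Hbb-bs averaged 0.176 for Ctrl, 0.154 for EtOH and 0.197 for EtOH-UA.

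Of the alpha globin genes, Hba-a1 was at 32.8 ± 9.10 FPKM in Ctrl (SD, n = 9), 44.2 ± 22.6 in EtOH (SD, n = 7) and 49.7 ± 19.6 in EtOH-UA mice (SD, n = 7). The lowest, median and highest Hba-a1 values were 16.82, 33.69 and 51.13 FPKM in Ctrl, 5.14, 46.77 and 70.1 in EtOH, and 24.21, 46.42 and 85.53 in EtOH-UA mice. The EtOH and EtOH-UA medians of Hba-a1 were almost equal, and its range in EtOH mice spanned 13.6-fold. Hba-a2 was at 17.2 ± 7.84 FPKM in Ctrl (SD, n = 9), 23.5 ± 9.32 in EtOH (SD, n = 7) and 31.7 ± 13.5 in EtOH-UA mice (SD, n = 7). Its lowest, median and highest values were 4.96, 16.38 and 33.6 FPKM in Ctrl, 7.19, 22.71 and 36.75 in EtOH, and 12.4, 31.08 and 51.33 in EtOH-UA mice. The groups overlapped, and a Ctrl mouse at 33.6 FPKM stood above all but 1 EtOH mouse. Within the alpha pair the ratio of Hba-a2 to Hba-a1 ran from 0.295 to 1.40 over the 23 mice and was above 1 in 2 of them.

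Alas2 was near 1 FPKM throughout. It was at 0.596 ± 0.121 FPKM in Ctrl (SD, n = 9), 0.841 ± 0.370 in EtOH (SD, n = 7) and 1.02 ± 0.395 in EtOH-UA mice (SD, n = 7). The lowest, median and highest Alas2 values were 0.39, 0.61 and 0.72 FPKM in Ctrl, 0.31, 0.79 and 1.46 in EtOH, and 0.5, 0.99 and 1.48 in EtOH-UA mice. Ctrl mice lay within a 1.85-fold range, and 4 of 7 EtOH and 5 of 7 EtOH-UA mice were above all of them. The ratio of Alas2 to Hbb-bs was 0.0152, 0.0153 and 0.0154 in Ctrl, EtOH and EtOH-UA mice.

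Alpha and beta transcripts were nearly equal in amount. The alpha sum (Hba-a1 and Hba-a2) was 50.1 ± 12.7 FPKM in Ctrl (SD, n = 9), 67.7 ± 31.6 in EtOH (SD, n = 7) and 81.4 ± 31.4 in EtOH-UA mice (SD, n = 7). The beta sum (Hbb-bs and Hbb-bt) was 48.9 ± 13.8, 66.0 ± 27.9 and 80.0 ± 31.2 FPKM in the same groups. Their ratio was 1.04 ± 0.0870 in Ctrl (SD, n = 9), 0.997 ± 0.151 in EtOH (SD, n = 7) and 1.02 ± 0.0719 in EtOH-UA mice (SD, n = 7). The coefficient of variation of this ratio was 8.36%, 15.1% and 7.06%, against 26.6%, 44.1% and 38.7% for the sum of all 4 globin genes. The alpha to beta ratio therefore varied less between mice than the globin level did, in each group.

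Counting error was a small part of this spread for the globin genes. Low FPKM values move in steps, and by those of 50 single-transcript genes 1 FPKM was worth about 16.7 fragments per kilobase in a library. At their mean levels that comes to about 568 fragments per mouse for Hbb-bs, 111 for Hbb-bt, 484 for Hba-a1, 218 for Hba-a2 and 27.2 for Alas2. Counting error alone would be 4.20% of the level for Hbb-bs and 19.2% for Alas2, and the coefficient of variation of Alas2 was 20.4%, 44.0% and 38.8% for Ctrl, EtOH and EtOH-UA. These errors were taken at the mean over all mice, which is 0.799 FPKM for Alas2. At the lower Ctrl mean of 0.596 FPKM the error in percent is larger. The Ctrl spread of Alas2 was therefore not above its estimated counting error, while the spread in the other groups was wider. The estimate uses the full transcript length and covers counting error only.

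In EtOH-UA against Ctrl, the comparison that chose the genes, all 5 members had a log2 fold change of at least 0.5, a size that 1.43% of the 15985 genes tested reached in that direction. On the log2(FPKM + 0.1) scale the differences were 0.66 for Hbb-bs, 0.85 for Hbb-bt, 0.55 for Hba-a1, 0.89 for Hba-a2 and 0.62 for Alas2, which correspond to 1.58-, 1.80-, 1.47-, 1.86- and 1.54-fold. The added 0.1 FPKM slightly understates the change of Alas2. These values describe the choice of the genes and are not evidence for it.

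In EtOH against Ctrl, the effect of the alcohol diet, no member passed the threshold. This comparison and the next share the Ctrl or the EtOH-UA mice with the one that chose the genes. None of the 15985 genes passed an adjusted p of 0.05 (limma, Benjamini-Hochberg; percent called 0), the smallest adjusted p in limma being 0.310, and 3.05% had an unadjusted p under 0.05. No member was among the 1.95% that were higher at that unadjusted threshold, or among the 2.01% with a log2 fold change of at least 0.5. The log2 fold change was 0.36 (SE 0.31) for Hbb-bs, 0.18 (SE 0.36) for Hbb-bt, 0.16 (SE 0.38) for Hba-a1, 0.46 (SE 0.34) for Hba-a2 and 0.35 (SE 0.23) for Alas2, each with an adjusted p of 0.999 in limma. The 95% intervals reached from -0.27 to 0.99 for Hbb-bs, -0.55 to 0.91 for Hbb-bt, -0.62 to 0.94 for Hba-a1, -0.24 to 1.17 for Hba-a2 and -0.12 to 0.83 for Alas2. All 5 members were higher in EtOH mice, with a median of 0.35, in a comparison where 48.6% of all genes were higher and the median over all genes was -0.00295. With array quality weights the values were 0.09 for Hbb-bs, -0.11 for Hbb-bt, -0.14 for Hba-a1, 0.23 for Hba-a2 and 0.21 for Alas2, so that Hbb-bt and Hba-a1 were lower in EtOH mice. An increase of up to 2.25-fold in Hba-a2 or 1.78-fold in Alas2 is thus within the intervals, as is no change.

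The exact permutation test on the same log2 values, two-sided over 11440 splits of the mice, gave p = 0.327 for Hbb-bs, 0.658 for Hbb-bt, 0.788 for Hba-a1, 0.25 for Hba-a2 and 0.147 for Alas2. On linear FPKM the exact p were lower, from 0.0754 for Alas2 to 0.336 for Hbb-bt. The size of the difference changed with 1 EtOH mouse that had the lowest value of every member, at 15.26 FPKM for Hbb-bs, 1.43 for Hbb-bt, 5.14 for Hba-a1, 7.19 for Hba-a2 and 0.31 for Alas2. Without this mouse the log2 fold changes were 0.65, 0.57, 0.62, 0.72 and 0.54 in the same order, with unadjusted p from 0.0147 to 0.0385 and adjusted p of 0.9997 in limma. A Ctrl mouse was low as well, with 16.07 FPKM for Hbb-bs, 2.05 for Hbb-bt, 16.82 for Hba-a1, 4.96 for Hba-a2 and 0.41 for Alas2. Without that Ctrl mouse the log2 fold changes were 0.20, -0.03, 0.05, 0.26 and 0.30. The value of Hba-a1 was -0.0046 and -0.0044 when either of the EtOH mice at 81.19 and 82.17 FPKM of Hbb-bs was left out.

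In EtOH-UA against EtOH, the effect of UA in alcohol-fed mice, no member passed the threshold either. Again no gene passed in limma (percent called 0), the smallest adjusted p being 0.507, and 3.27% had an unadjusted p under 0.05. None of the members was among the 1.83% that were higher at that unadjusted threshold. The log2 fold change was 0.30 (SE 0.32) for Hbb-bs, 0.67 (SE 0.38) for Hbb-bt, 0.39 (SE 0.40) for Hba-a1, 0.43 (SE 0.36) for Hba-a2 and 0.27 (SE 0.25) for Alas2, each with an adjusted p of 0.900 in limma. The 95% intervals were -0.36 to 0.97, -0.11 to 1.45, -0.43 to 1.22, -0.32 to 1.18 and -0.24 to 0.77 in that order. Hbb-bt was the member with a log2 fold change of at least 0.5, a size that 0.563% of genes reached upward. All 5 members were higher in EtOH-UA mice, with a median of 0.39, where 51.2% of all genes were higher and the median over all genes was 0.00330.

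The exact permutation test, two-sided over 3432 splits, gave p = 0.471 for Hbb-bs, 0.0950 for Hbb-bt, 0.585 for Hba-a1, 0.306 for Hba-a2 and 0.406 for Alas2. The same low EtOH mouse moved these differences too. Without it the log2 fold changes were 0.02 for Hbb-bs, 0.28 for Hbb-bt, -0.07 for Hba-a1, 0.17 for Hba-a2 and 0.08 for Alas2, with adjusted p from 0.982 to 0.998 in limma. The difference between both alcohol-fed groups was thus within the spread between mice for all 5 members, and without this mouse Hba-a1 was slightly lower in EtOH-UA mice.

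**Figure D2:**
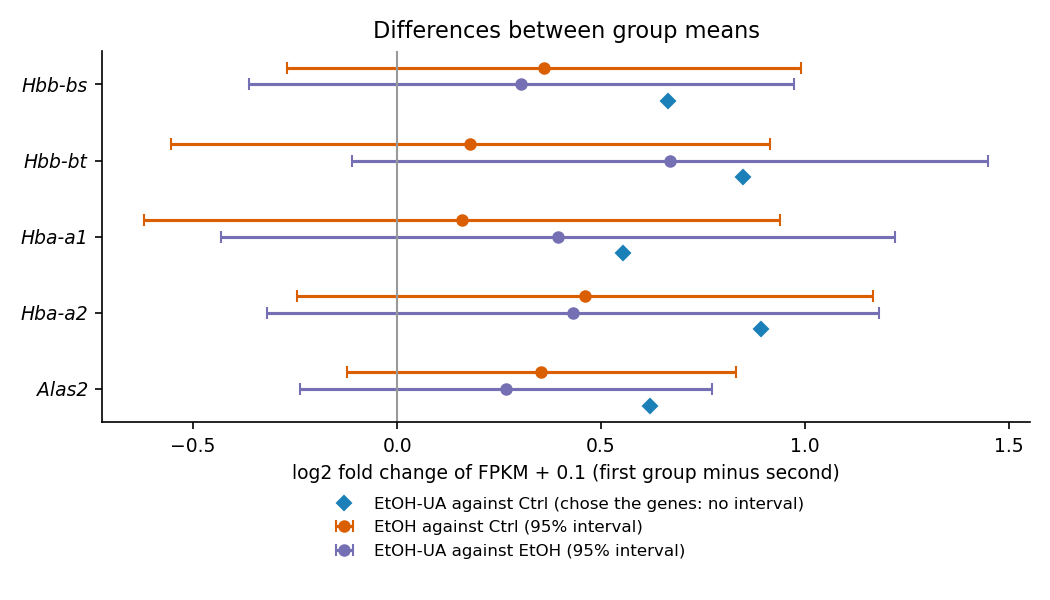
Difference of the group means of log2(FPKM + 0.1) for each member (x axis, first group minus second); circles with 95% intervals from limma are EtOH against Ctrl and EtOH-UA against EtOH, and diamonds without an interval are EtOH-UA against Ctrl, which chose the genes. All 10 intervals include 0, and the widest reaches from -0.43 to 1.22, for Hba-a1 in EtOH-UA against EtOH.

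The members varied strongly between mice of the same group. The within-group SD of log2(FPKM + 0.1) was 0.66 for Hbb-bs, 0.77 for Hbb-bt, 0.82 for Hba-a1, 0.74 for Hba-a2 and 0.48 for Alas2, against a median of 0.16 over 12904 genes averaging 1 FPKM or more. Of those genes, between 0.845% and 1.32% had a larger SD than the 4 globin genes, and 2.46% a larger SD than Alas2. Alas2 itself averaged 0.799 FPKM and is not among them. Over all 15985 genes tested, the shares were 2.11% to 3.79% for the globin genes and 8.26% for Alas2. The globin sum ran from 39.9 to 136.72 FPKM among Ctrl, 29.02 to 199.99 among EtOH and 83.84 to 274.51 among EtOH-UA mice.

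Mice with more of 1 member had more of the others. After the group means were subtracted, Pearson's r between pairs of members ranged from 0.725 (Hba-a1 and Hba-a2) to 0.920 (Hbb-bs and Hba-a1) over the 23 mice, and Spearman's rho from 0.474 to 0.836. The permutation p of r, over 100000 permutations within groups, was 0.00036 at most and 1e-05 at least, the smallest they can give. After Benjamini-Hochberg adjustment over 28 relations computed in this family, r passed 0.05 for all 10 pairs and rho for 9 of them, and the rho of Hba-a1 and Hba-a2 had an adjusted p of 0.0605 by permutation. Without the 2 mice farthest in the first gene of a pair, r was still between 0.596 and 0.879. Within single groups, r of all pairs was positive, at 0.459 to 0.867 among Ctrl, 0.882 to 0.992 among EtOH and 0.766 to 0.988 among EtOH-UA mice. By ranks the Ctrl relations were weaker. Within groups rho was 0.0833 to 0.767 among Ctrl, 0.714 to 0.964 among EtOH and 0.607 to 0.964 among EtOH-UA mice. Among Ctrl mice, rho was 0.217 for Hbb-bs and Hba-a1 (exact permutation p 0.581) and 0.717 for Hbb-bs and Alas2 (exact permutation p 0.0369).

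Across the alpha and beta genes, whose reads cannot be confused, Hbb-bs and Hba-a1 were related with r = 0.920, rho = 0.811 and r = 0.879 without the 2 farthest mice (permutation p 1e-05 for r and 2e-05 for rho). Alas2, which shares no reads with the globin genes, was related to Hbb-bs with r = 0.866, rho = 0.819 and r = 0.844 without the 2 farthest mice (permutation p 1e-05 for r and 2e-05 for rho). The weakest relation was that between the alpha genes, whose transcripts share most of their 100-base windows.

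**Figure D3:**
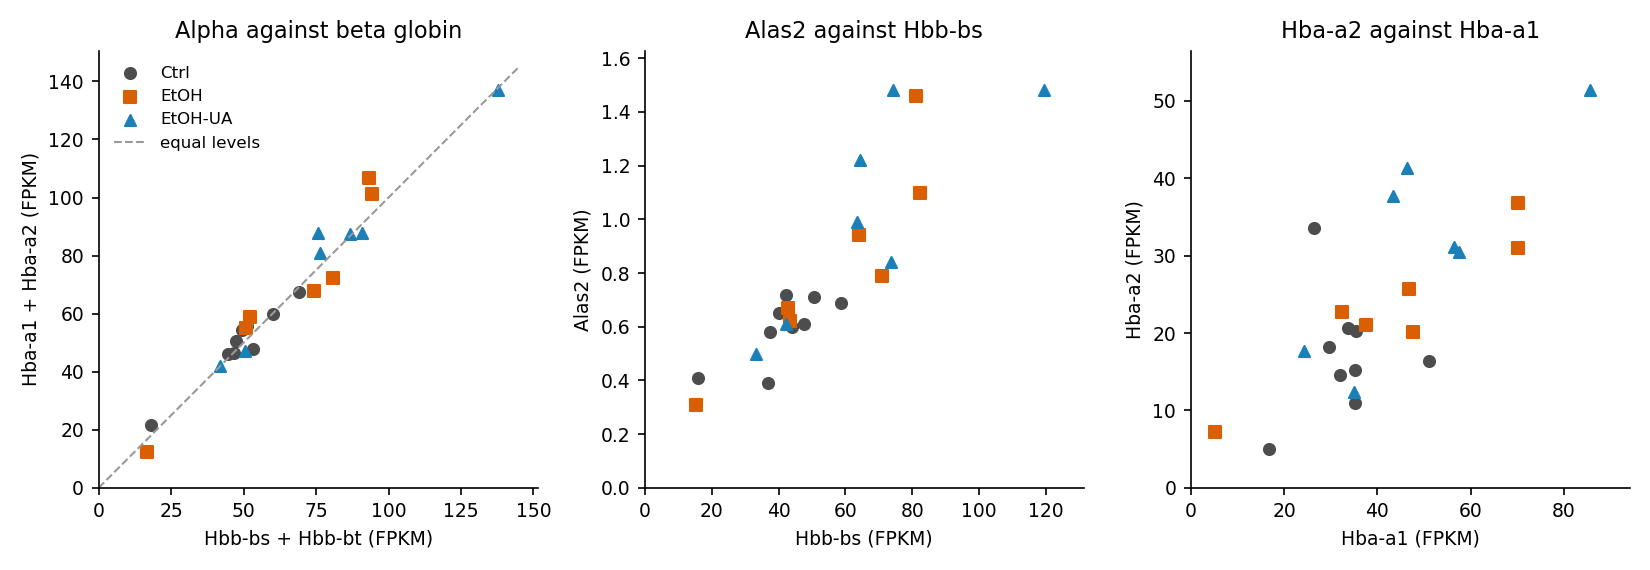
Levels of members in the same mouse, in FPKM on linear axes, with each point a mouse: alpha sum against beta sum with the line of equal levels, Alas2 against Hbb-bs, and Hba-a2 against Hba-a1. Alpha and beta sums follow the line over the whole range in all 3 groups, Alas2 follows Hbb-bs more loosely, and the alpha genes scatter most, with 2 mice above a ratio of 1.

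The other globin genes were low. Hbb-bh2, a beta-like gene, was at 1.61 ± 0.529 FPKM in Ctrl (SD, n = 9), 1.62 ± 0.213 in EtOH (SD, n = 7) and 1.71 ± 0.555 in EtOH-UA mice (SD, n = 7). The theta globin genes Hbq1a and Hbq1b were below 1 FPKM in every group mean, with Hbq1a at 0.982 ± 0.558 in Ctrl (SD, n = 9), 0.731 ± 0.234 in EtOH (SD, n = 7) and 0.566 ± 0.270 in EtOH-UA mice (SD, n = 7). The groups of Hbq1a overlapped, with ranges of 0.25 to 1.99, 0.29 to 0.98 and 0.23 to 0.94 FPKM. None of these 3 genes passed the test in any comparison (limma, adjusted p at least 0.900). Embryonic Hbb-y was listed at 0 in 17 of 23 mice and reached 0.1 FPKM. Hbb-b1 and Hbb-b2, the adult beta genes of the other mouse haplotype, were at most 0.15 and 0.02 FPKM.

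In the rest of the heme pathway, none of 8 other enzyme genes passed in any comparison, and their median log2 fold change was -0.04 in EtOH against Ctrl, 0.05 in EtOH-UA against EtOH and 0.01 in EtOH-UA against Ctrl. Alas1, the first enzyme in non-erythroid cells, was at 17.8 ± 1.38 FPKM in Ctrl (SD, n = 9), 17.4 ± 1.37 in EtOH (SD, n = 7) and 18.0 ± 1.37 in EtOH-UA mice (SD, n = 7). Fech, which inserts the iron, was at 22.1, 22.1 and 21.9 FPKM. The 10 genes of iron and heme transport, among them the transferrin receptor Tfrc, had medians of -0.02, 0.02 and 0.004 and no call. The 11 genes of heme breakdown, scavenging and iron storage had medians of -0.04, 0.10 and 0.04 and no call, with the ferritin heavy chain Fth1 at 1535, 1506 and 1680 FPKM. The haptoglobin gene Hp, which codes for the plasma protein that binds free hemoglobin, had a log2 fold change of 0.59 in EtOH-UA against EtOH, at an unadjusted p of 0.0448 and an adjusted p of 0.900 in limma, at levels of 0.184 and 0.0957 FPKM.

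Transcripts of the red cell membrane ranged from near 0 to the levels of neuronal genes. Of 15 genes of the red cell membrane and cytoskeleton, 9 passed the filter at a mean of 0.1 FPKM, and those at high level, such as Dmtn (62.7 FPKM) and Add2 (62.6 FPKM), are also used by neurons. Slc4a1, the band 3 anion exchanger and a major protein of the red cell membrane, had a mean of 0.0217 FPKM, a highest value of 0.06 and was listed at 0 in 6 of 23 mice. Rhag was at 0.0778 FPKM and Kel at 0.0361. Ermap (0.811 FPKM) and Gypc (0.814 FPKM), also genes of the red cell membrane, were above 0 in every mouse, at a level like that of Alas2. The list's medians were 0.01, -0.04 and -0.0007, again with no call, and its summed level ran from 169.92 to 207.77 FPKM among Ctrl, 183.24 to 200.17 among EtOH and 165.7 to 209.86 among EtOH-UA mice. Of the erythroid transcription factors, Gata1 was listed at 0 in 22 of 23 mice and Klf1 had a mean of 0.120 FPKM, while Lmo2, which endothelial cells also use, was at 9.89 FPKM. The 5 of this list that passed the filter had medians of -0.08, 0.01 and 0.05 and no call. Of 17 genes of reticulocyte maturation and red cell enzymes, 13 passed the filter and 0 were called, with medians of 0.02, 0.05 and 0.04. Carbonic anhydrase 1 (Car1) and Trim58, both red cell genes, had means of 0.0391 and 0.0152 FPKM.

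Markers of other blood cells were also low. Platelet genes summed to 4.49 to 7.66 FPKM among Ctrl, 4.28 to 6.4 among EtOH and 4.58 to 6.46 among EtOH-UA mice, with 7 of 12 passing the filter, 0 called, and medians of -0.02, -0.04 and -0.09. Lymphocyte genes summed to 0.85 to 1.67, 1.02 to 1.88 and 0.88 to 1.86 FPKM, with 4 of 11 passing the filter, 0 called, and medians of -0.04, -0.03 and -0.09. Neutrophil genes summed to 3.33 to 8.44, 2.78 to 8.67 and 2.72 to 10.78 FPKM, with 6 of 12 passing the filter, 0 called, and medians of -0.04, -0.20 and -0.26. Within that list Lcn2, a secreted iron-siderophore carrier also made by glia, went against the median, at 0.406 ± 0.304 FPKM in Ctrl (SD, n = 9), 0.764 ± 0.707 in EtOH (SD, n = 7) and 1.36 ± 0.591 in EtOH-UA mice (SD, n = 7). Its log2 fold change in EtOH-UA against Ctrl was 1.55 (SE 0.49), with an unadjusted p of 0.00405 and an adjusted p of 0.999 in limma. Hippocampal neuron genes were high in all libraries, with Snap25 at 1102 and Slc17a7 at 429 FPKM, and the list of 10 had medians of -0.05, 0.03 and -0.02 and no call. The 12 hypoxia response genes had medians of 0.02, 0.04 and 0.06 and no call.

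Vessel and border tissue markers were measured beside the globin genes because a dissected hippocampus can hold blood vessels, meninges and choroid plexus. The 15 brain endothelium genes had medians of -0.01, 0.06 and 0.06, the 9 genes of pericytes and vascular smooth muscle -0.05, 0.11 and 0.04, and the 10 of meninges and fibroblasts 0.03, 0.12 and 0.16, with no call in any list. In EtOH-UA against Ctrl, 12 of the 15 endothelial genes had a positive log2 fold change, in a comparison where 51.2% of all genes did. Acta2, the smooth muscle actin, was at 3.59, 3.86 and 4.93 FPKM for Ctrl, EtOH and EtOH-UA, with a log2 fold change of 0.42 in EtOH-UA against Ctrl (unadjusted p 0.00674, adjusted p 0.999 in limma) and 0.33 in EtOH-UA against EtOH (unadjusted p 0.0385, adjusted p 0.900 in limma). Ly6c1, of endothelium, had 0.23 in EtOH-UA against EtOH (unadjusted p 0.0199, adjusted p 0.900 in limma). Lists of other tissues also held genes that were higher at an unadjusted p under 0.05 in limma. These were 2 choroid plexus genes in EtOH against Ctrl, 1 hippocampal neuron gene in EtOH-UA against Ctrl and 1 hypoxia gene in EtOH-UA against EtOH. The part of vessel RNA in the globin differences was not tested. All 12 choroid plexus genes had higher means with the ethanol diet, with or without UA, than in Ctrl mice, with medians of 1.66 and 1.2, and a median of -0.43 in EtOH-UA against EtOH, and none was called. Their summed level ran from 41.73 to 3384 FPKM among Ctrl, 133.05 to 6656 among EtOH and 50.83 to 8568 among EtOH-UA mice. Its part in the group difference of the globin genes was not tested. Between mice of a group, Hbb-bs and the choroid plexus list were related with r = -0.151 and rho = -0.0287 (permutation p 0.484 for r and 0.898 for rho), with r = -0.544 for Ctrl, 0.297 for EtOH and -0.147 for EtOH-UA. The EtOH-UA mouse with the highest globin sum (274.51 FPKM) had the highest Ttr level of the series, 7704.77 FPKM, while the Ctrl mouse with the lowest globin sum (39.9 FPKM) had the highest Ttr level of its group, 2913.56 FPKM.

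Of the 16 list scores, 1 had an adjusted p of r with Hbb-bs under 0.05 between mice of a group, and 3 with a pseudocount of 1. The adjustment ran over all 28 relations, with the pairs of members, Cldn5 and the summed FPKM among them. The small p of the member pairs lower the adjusted p of the lists. No adjustment over the lists alone was made, so these calls are weak. The smallest unadjusted permutation p of r for a list was 0.0160, and 0.00467 with a pseudocount of 1. The heme synthesis list had r = 0.515, rho = 0.419 and r = 0.546 without the 2 farthest mice, with an adjusted p of 0.0344 for r and 0.104 for rho by permutation. Reticulocyte maturation and red cell enzymes followed with r = 0.467, rho = 0.387 and r = 0.443 without the 2 farthest mice (adjusted p 0.0679 and 0.178 by permutation). Heme breakdown, scavenging and iron storage had r = 0.437, rho = 0.336 and r = 0.366 (adjusted p 0.0854 and 0.236 by permutation). With a pseudocount of 1 these became r = 0.536 and 0.591, with adjusted p of 0.0252 and 0.0119 by permutation. Brain endothelium had r = 0.415, rho = 0.426 and r = 0.536 (adjusted p 0.128 and 0.114 by permutation). The red cell membrane list had r = -0.165, the erythroid transcription factors -0.0131 and hippocampal neurons -0.0700. These relations were computed on the average of the list's genes that passed the filter, so the near-0 red cell genes are not in them.

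A pair of measures added after the values were seen also moved with Hbb-bs. Cldn5, the tight junction gene of brain endothelium, had r = 0.587, rho = 0.527 and r = 0.539 without the 2 farthest mice. It was taken as the endothelial gene most like the members (r = 0.563 with their mean deviation, against a median of 0.299 and a lowest value of -0.113 over the 15 genes), so no p is given for it. Within groups r with Cldn5 was 0.422 for Ctrl, 0.546 for EtOH and 0.817 for EtOH-UA. It was at 14.4 ± 2.36 FPKM in Ctrl (SD, n = 9), 14.3 ± 2.98 in EtOH (SD, n = 7) and 16.4 ± 4.34 in EtOH-UA mice (SD, n = 7). The summed FPKM of the library had r = 0.503, rho = 0.447 and r = 0.571 without the 2 farthest mice. It was also added after the values were seen, so no p is given for it either. Within groups r with the summed FPKM was 0.286 for Ctrl, 0.479 for EtOH and 0.762 for EtOH-UA, and the mouse with the highest globin sum had the highest summed FPKM, 404609. The part of the summed FPKM in the globin levels was not tested, and the globin share of the summed FPKM ran in the same order of group means as the FPKM.

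**Figure D4:**
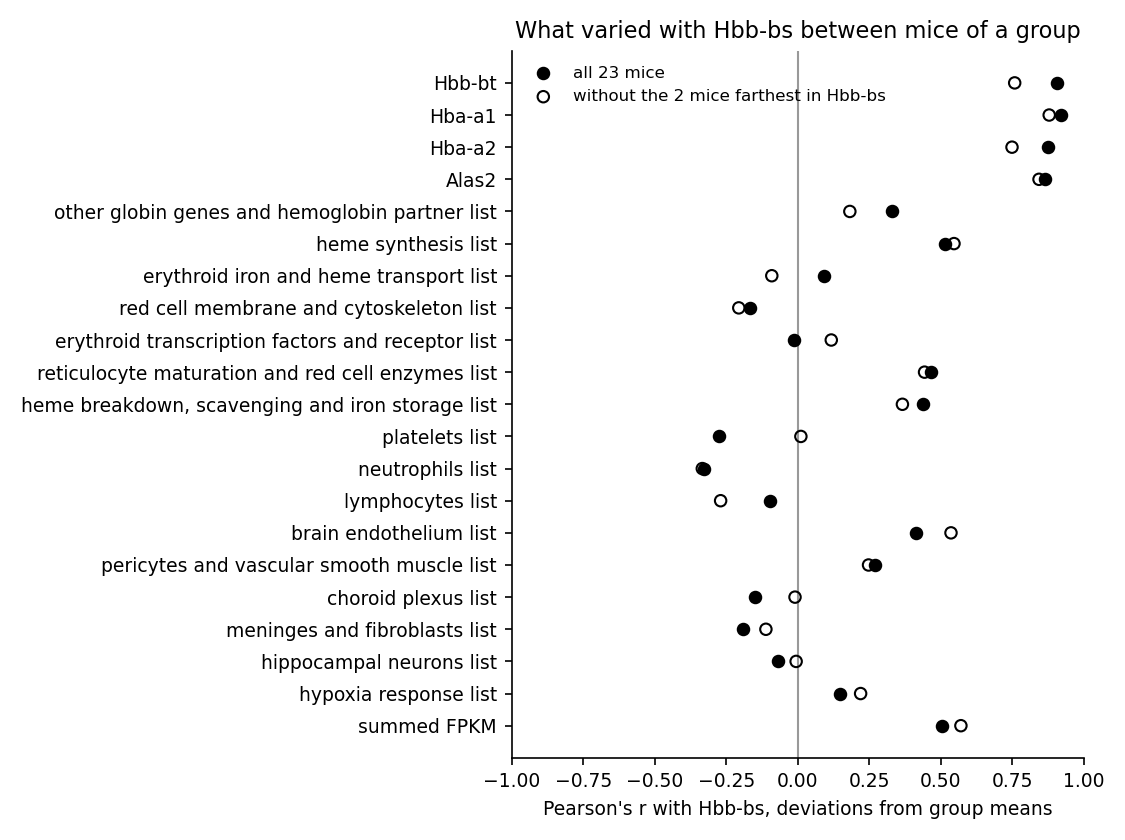
Pearson's r between Hbb-bs and each other member, each of 16 gene lists and the summed FPKM (rows), computed on deviations from group means over 23 mice (filled circles) and without the 2 mice farthest in Hbb-bs (open circles). The 4 other members lie between 0.866 and 0.920 in the filled circles, and the highest list, heme synthesis, lies at 0.515.

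Among 12900 other genes averaging 1 FPKM or more, those most like the mean deviation of the 5 members over the 23 mice included Ppp1r14a (r = 0.791), Myadml2 (0.747), Ctdnep1 (0.745), Golga7 (0.688), Pold4 (0.685), Msrb1 (0.682), Trem2 (0.679), Cenpw (0.674) and Fkbp7 (0.671). Over all these genes the median r was 0.0164 and the range -0.708 to 0.791, and r is given as a description because these genes were taken from the top of it. Ppp1r14a encodes an inhibitor of myosin phosphatase and Trem2 a receptor of microglia. Their group means were flat beside those of the members, at 10.7, 10.8 and 11.2 FPKM for Ppp1r14a and 6.86, 6.46 and 6.66 for Trem2 in Ctrl, EtOH and EtOH-UA mice. Ppp1r14a was positive within each group, with r = 0.742 for Ctrl, 0.865 for EtOH and 0.843 for EtOH-UA, while Cenpw was at 0.145 in Ctrl and 0.976 in EtOH mice. Of the genes in the lists, those placed highest in this order were Fth1 (r = 0.621, rank 26), Bpgm (0.595, rank 48), which makes the 2,3-bisphosphoglycerate of red cells, and Cldn5 (0.563, rank 91).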

How the data were processed

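Hippocampal RNA of 23 mice was sequenced with paired 100-base reads. The RNA is named as poly(A)+ in the methods and as total in the labels. The authors aligned reads to mm10 with Bowtie2 and deposited FPKM estimated with RSEM, to 2 decimals, for 19733 genes; the submitters' processing notes list Bowtie2 2.2.5, RSEM 1.2.8, HISAT2 2.1.0, StringTie and DESeq. Summed FPKM ranged from 327896 to 404609, and read counts were not used.

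Columns were assigned to groups by name. The 15985 genes averaging 0.1 FPKM or more were fitted on log2(FPKM + 0.1) with limma 3.58.1 in R 4.3.3, as 1 model of 3 groups with an intensity trend, adjusted over all genes. The same fit was also run on simulated data with noise drawn independently for each gene. That simulation lacks the correlation between members, and no result given here rests on it. Single genes were compared by exact permutation tests, and correlations used deviations from group means and 100000 permutations within groups. Depth was estimated from steps between low FPKM values that lay within 15%. Sequences came from RefSeq (GRCm38.p6) and transcript windows from GENCODE.

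The members and the 16 gene lists were chosen with earlier results of these data known. Named list genes were those called, the 3 most abundant and the one with the largest change in EtOH-UA against Ctrl, plus the 10 genes most like the members; near-0 red cell genes, Ermap, Alas1, Lmo2, Bpgm, Cldn5, Acta2, Ly6c1, Abcb6, Slc25a37 and Itga2b were named after their values were seen. Tried as alternatives were other pseudocounts (1, 0.01) and filters (none, 1 FPKM), only the mice of both groups compared, upper-quartile and quantile scaling, robust eBayes, array quality weights and each mouse left out. Of the lists, 175 of 181 genes were matched by symbol, and the others were not analysed here. Some genes that this rule names are not reported here.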

Additional observations from a re-analysis of the deposited data

Results flagged for a closer look

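Dixon's ratio of a mouse's gap to the group's range was taken on the log2 scale of the fits, not on FPKM. By it, the lowest mouse of a group stood apart from the others in 6 of the 15 combinations of member and group. In Ctrl mice this was the case for Hbb-bs (16.07 FPKM, ratio 0.639) and Hbb-bt (2.05 FPKM, ratio 0.601). In EtOH mice it was the case for Hbb-bs (15.26 FPKM, ratio 0.613), Hbb-bt (1.43 FPKM, ratio 0.797), Hba-a1 (5.14 FPKM, ratio 0.703) and Hba-a2 (7.19 FPKM, ratio 0.629). The log scale widens gaps at the low end. On linear FPKM the ratios are smaller, and most of the 6 would not stand apart. Chance alone marks about 1 in 20 groups, or 0.75 of 15. The 4 values in EtOH are from 1 mouse and both values in Ctrl from 1 mouse, so these are not separate events. No value in EtOH-UA mice stood apart. The low EtOH mouse had a summed FPKM of 329921 and the low Ctrl mouse 333693, both inside the range of the other mice. What set these 2 mice apart was not tested.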

How the results depend on the processing

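No paired analysis was possible because the groups hold different animals, nothing ties the mice of different groups to each other, and the columns carry mouse numbers rather than replicate numbers. Of the alternatives other than leaving out a mouse, array quality weights moved most: they gave 1 called gene in EtOH against Ctrl, 1403, 865 and 1067 genes at an unadjusted p under 0.05 in EtOH against Ctrl, EtOH-UA against EtOH and EtOH-UA against Ctrl (487, 523 and 492 without weights), and in EtOH against Ctrl they turned Hbb-bt to -0.11 and Hba-a1 to -0.14. A filter at 1 FPKM left 248 genes at an unadjusted p under 0.05 in EtOH against Ctrl, with fewer genes tested. With single mice left out, called genes numbered 0 to 1 in each comparison, and genes at an unadjusted p under 0.05 from 316 to 938 in EtOH against Ctrl, 307 to 1241 in EtOH-UA against EtOH (994 without the EtOH-UA mouse at 42.38 FPKM of Hbb-bs) and 345 to 728 in EtOH-UA against Ctrl. Leaving out a mouse turned Hbb-bt to -0.029 and Hba-a1 to -0.0046 or -0.0044 in EtOH against Ctrl, and Hba-a1 to -0.066 in EtOH-UA against EtOH. No member was called under any alternative in the 2 comparisons tested, where the lowest adjusted p of a member in limma was 0.574. A pseudocount of 1 lowered Alas2 in EtOH-UA against Ctrl to 0.32 and turned r of Hbb-bs with the erythroid transcription factors to 0.303. It raised r with the reticulocyte and heme breakdown lists to 0.536 and 0.591. These passed the threshold in the adjustment over all 28 relations, which was not made over the lists alone. No scaling moved the median over all genes by 0.1 or more. The causes were not tested. Depth limits Alas2, at about 27.2 fragments per mouse, and the genes near 0.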

Other observations

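Single genes of several lists ran against the members between mice of a group, and those lowest in 2 lists are described here. Slc25a37, which encodes mitoferrin-1, the mitochondrial iron importer of red cell precursors, had r = -0.547 with the mean deviation of the 5 members over 23 mice, at a mean of 6.74 FPKM. Its group means were 6.78, 6.76 and 6.66 FPKM for Ctrl, EtOH and EtOH-UA. Itga2b, the platelet integrin alpha chain, had r = -0.651 at a mean of 0.357 FPKM. The median r was 0.0757 over the 10 iron and heme transport genes, where Abcb6 had 0.508, and -0.134 over the 7 platelet genes, where the highest was 0.160. Other lists held genes on both sides too. Their r ran from -0.493 to 0.427 over the hypoxia genes and from -0.467 to 0.595 over the reticulocyte and red cell enzyme genes. Over the red cell membrane genes it ran from -0.412, for Ermap, to 0.502. Slc25a37, Itga2b and Ermap were chosen after their values were seen. Over all genes of at least 1 FPKM r ran from -0.708 to 0.791, so these values are given as a description.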
